A study of Medicago truncatula with 24 samples.

Results

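The long H3K27me3 domains described here are 1054 of the 30441 H3K27me3 peaks on chromosomes 1 to 8 of *Medicago truncatula* embryos (line A17). They were selected on their length, as peaks of at least 5000 bp, and chosen by their place outside persistent regions. To find these, the peaks of the 8 H3K27me3 lists were merged where they overlapped or touched, which gave 21666 regions, and a region with a peak of 6 or more lists was called persistent. There were 314 persistent regions, and they held 1161 of the 2215 peaks of at least 5000 bp. The length of the peaks and the number of lists with a peak in the region chose the domains, so both are described without a test. All plants grew at a day temperature of 20°C until flowering, when a part of them was moved to 26°C, the heat stress. Embryos were dissected from seeds at 4 stages, before (S1) and after (S2) the acquisition of desiccation tolerance and before or at the onset of (S3) and after (S4) that of longevity. At 20°C these stages were 17, 26, 36 and 44 days after pollination, and at 26°C they were 14, 17, 22 and 28 days. Each stage and temperature had 1 immunoprecipitated (IP) library of pooled embryos with 1 INPUT library, so a difference between 2 conditions has no replicate error and cannot be told apart from a difference between 2 libraries. H3ac, the acetylation of histone H3, was measured at S1 and S2, also with 1 IP and 1 INPUT library per condition, which gave 4 lists. The H3ac lists hold narrow peaks, while the H3K27me3 lists hold broad peaks. The series record speaks of a second H3ac replicate, and 1 per condition was analysed here.

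H3K27me3 is the trimethylation of lysine 27 of histone H3. In plants it is written by the Polycomb repressive complex and is known as a mark of genes kept silent, among them many developmental regulators. It often spans the transcribed part of single genes, and longer stretches form where the mark spreads or where neighbouring marked genes lie side by side. H3 acetylation is known from the promoters and first exons of active genes. A broad peak is a stretch in which the peak caller linked neighbouring enriched parts, so a long domain may hold short parts with little enrichment. No genome sequence was used here, so sequences of the domains are not shown, and the gene table used gives symbols and types of genes without functions.

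Most long domains came from the youngest embryos. The list of S1 at 20°C held 323 of them, that of S1 at 26°C 247 and that of S2 at 26°C 233. The other lists held 80 (S4 at 26°C), 58 (S3 at 26°C), 56 (S2 at 20°C), 42 (S4 at 20°C) and 15 (S3 at 20°C). The first 3 lists are those of embryos 14 or 17 days old, and the other 5 lists are of embryos of at least 22 days. The younger lists thus held 803 domains (76.2%) and the older lists 251 (23.8%). This split by age was chosen after the values were seen, and it is used only to describe. The stage S2 fell on both sides of it, with 233 domains at 17 days and 26°C and 56 domains at 26 days and 20°C.

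**Figure D1:**
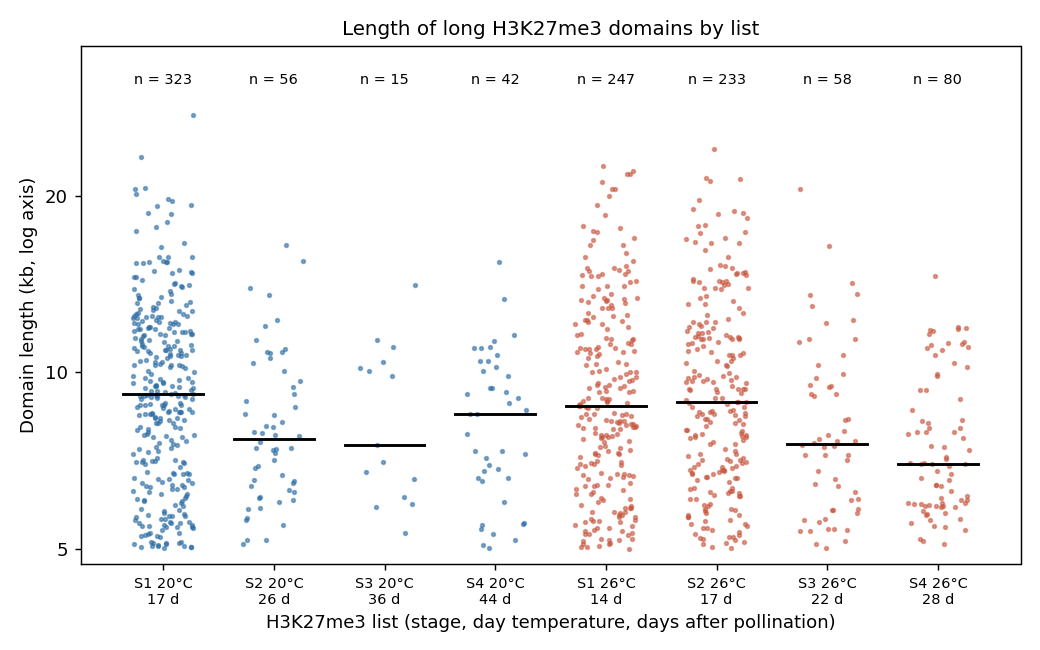
Length of each long H3K27me3 domain (points, log axis, kb) by list, with the median as a black line, 20°C in blue and 26°C in red. The lists of 14 and 17 days hold 323, 247 and 233 domains, and no other list holds more than 80.

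The share that long domains made of a list differed as well. For S1 they were 6.95% of the peaks at 20°C (exact 95% binomial interval, Clopper-Pearson, 6.23% to 7.72%) and 4.40% at 26°C (3.88% to 4.97%). For S2 at 26°C the share was 4.45% (3.91% to 5.05%). They were 4.87% of the peaks of S4 at 20°C (3.53% to 6.53%), a list of only 862 peaks, and 0.900% of S3 at 26°C (0.684% to 1.16%), a list of 6448 peaks. These intervals cover counting error only. In covered length the domains made up 3.15 Mb (41.4%) of the S1 list at 20°C and 2.40 Mb (29.8%) of that at 26°C. They made up 2.30 Mb (28.8%) of the list of S2 at 26°C. In the other 5 lists they made up 0.128 to 0.622 Mb, or 3.93% to 10.8%.

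Between S1 and S4 the number of domains was lower by 2.94 on the log2 scale at 20°C, from 323 to 42, and the shorter peaks outside persistent regions were lower by 2.96. At 26°C the number went from 247 to 80, a log2 ratio of −1.63, while that of the shorter peaks was −0.36. The long peaks inside persistent regions went the other way, with log2 ratios of 0.27 at 20°C and 0.36 at 26°C. At S3 and 26°C the list held 5927 shorter peaks, more than the 4992 of S1, but only 58 long domains. The temperatures were not ordered in the same way at each stage. At S1 there were fewer domains at 26°C, with a log2 ratio to 20°C of −0.39. There were more at 26°C at S2 (2.06), S3 (1.95) and S4 (0.93).

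The median length of the domains at S1 was 9179 bp (20°C) and 8746 bp (26°C), and that of S2 at 26°C was 8899 bp. It was 6984 to 8496 bp in the older lists. Of the 384 domains of at least 10 kb, 322 (83.9%) came from the 3 younger lists, against 76.2% of all domains. The longest had 27450 bp (S1 at 20°C), and 17 domains reached 20 kb. Just inside the limit were domains of 5002, 5009 and 5010 bp, with fold enrichments of 2.98, 2.71 and 3.73. Just outside it were peaks of 4998, 4991 and 4991 bp, with 4.95, 3.98 and 2.89. The limit therefore cuts a continuous range, with 133 shorter peaks up to 500 bp under it and 97 domains less than 500 bp above it. The other limit does so too, with 217 domains in regions of 5 lists and 250 long peaks left out because their regions had 6.

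The fold enrichment over INPUT, which the authors' peak caller averaged over the peak, had a median of 4.48 for the domains of S1 at 20°C and 3.88 for those of the same stage at 26°C. It was 3.77 for S2 at 26°C. In the other lists the median was 2.56 to 2.97. The median of the shorter peaks of the same list was lower than that of the domains in 6 of 8 lists. It was 3.57 for S1 at 20°C and 2.44 to 2.86 in the older lists. In the lists of S1 and S2 at 26°C the shorter peaks had the higher median, 3.94 and 3.92. The highest enrichment of a domain was 26.1 (S1 at 26°C), and in S3 and S4 at 20°C no domain exceeded 3.91. Longer domains tended to have a higher enrichment in 7 of the 8 lists, with r between log2 length and log2 enrichment from 0.26 to 0.43, and r was −0.018 over the 15 domains of S3 at 20°C. Domains of a list share its library and its background, so these values are given as a description.

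Joined across lists, the domains formed 782 loci. Of these, 598 (76.5%) were long in 1 list only, 124 in 2, 38 in 3, 17 in 4 and 5 in 5 lists. By peaks of any length, 222 domains lay in regions of 1 list, 227 of 2, 187 of 3, 201 of 4 and 217 of 5 lists. In S1 at 20°C 129 of 323 domains were in regions of 1 list, and in S3 at 20°C all 15 were in regions of 4 or 5 lists. Of the 598 loci, 376 had a shorter peak in at least 1 other list, and 222 had none. By temperature, 304 loci were long at 20°C only, 362 at 26°C only and 116 at both. The loci lay in 781 merged regions, of which 203 (26.0%) had peaks of any length at 26°C only, 139 (17.8%) at 20°C only and 439 (56.2%) at both. Over all 21352 merged regions outside persistent regions these shares were 69.6%, 20.5% and 9.95%. The rule limits how many lists a region can have, and a long region has more room to meet a peak of another list, so nothing is read from this difference. The loci long in S1 at 20°C alone were the largest class, with 252, followed by 122 of S1 at 26°C alone and 103 of S2 at 26°C alone. A total of 587 loci were long only in the younger lists, 146 only in the older lists and 49 in both.

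The places of the domains were shared in part along the same division and in part across it. Peaks of S2 at 26°C covered 42.3% of the domain bases of S1 at 26°C, and peaks of S1 at 26°C covered 43.4% of those of S2 at 26°C. For the shorter peaks of these lists the shares were 9.13% and 11.2%. The domains of S1 at 20°C were covered to 14.0% by peaks of S1 at 26°C and to 15.3% by those of S2 at 26°C, the list of the same age of 17 days. Peaks of the later stages at 20°C covered almost none of them, 1.02% at S2, 0.150% at S3 and 0.224% at S4. These are no higher than the shares for the shorter peaks of S1 at 20°C, which were 1.85%, 0.761% and 0.657%. The domains of S3 at 20°C were covered to 56.9% by peaks of S4 at 26°C, to 52.2% by those of S3 at 26°C and to 0% by those of S1 at 20°C. For S4 at 20°C the highest share, 35.9%, was again with S4 at 26°C. Across the division, peaks of S1 at 26°C covered 39.0% of the domain bases of S2 at 20°C, and peaks of S2 at 26°C covered 46.6% of those of S3 at 26°C. Where a peak of another list met a domain, it was most often a single peak, with a median of 1 peak in each pair of lists that shared any and at most 4.

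**Figure D2:**
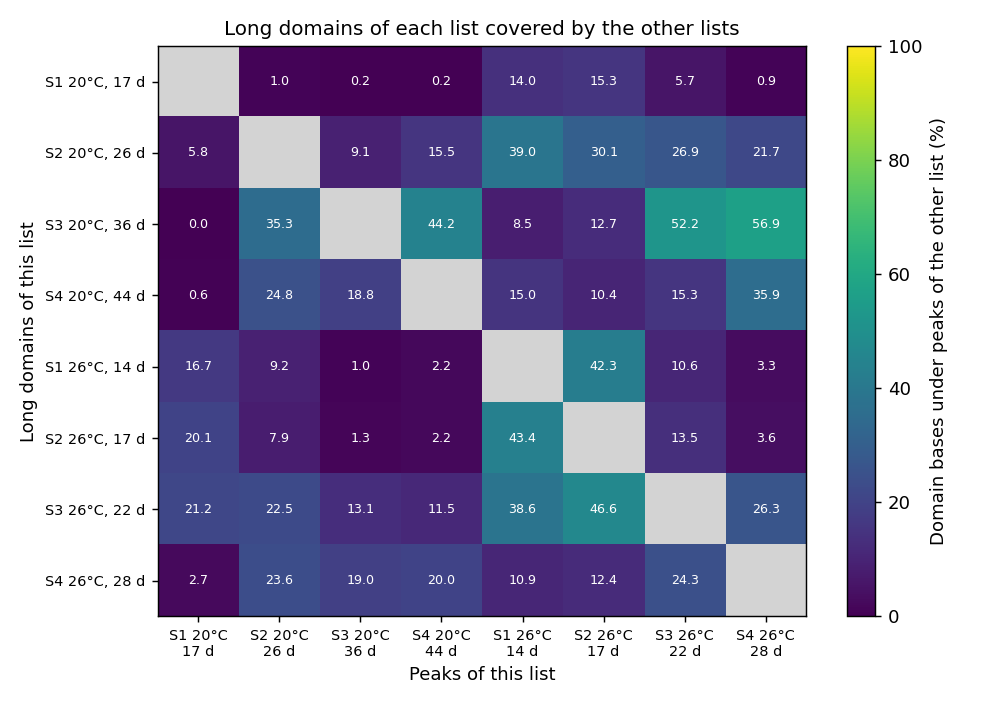
Share of the bases of the long domains of each list (rows) that lie under peaks of any length of each other list (columns), in %. The lists of S1 and S2 at 26°C cover 42.3% and 43.4% of each other's domains, and S1 at 20°C is covered to 1.02% or less by the later stages at 20°C.

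Domains of different lists at one place often shared an edge. Among 389 pairs of overlapping domains from different lists, 142 (36.5%) had at least 1 edge within 50 bp of each other, and 20 (5.14%) had both. The median distance between 2 edges was 867 bp. The closest case was on chromosome 2, where the domains of S1 and S3 at 26°C both ran from 34186127 to 34206688 and that of S1 at 20°C from 34186130 to 34206687. These are 20562, 20562 and 20558 bp. Their fold enrichments were 5.67, 4.51 and 3.18. The domain of S2 at 26°C at this place had the highest enrichment, 11.1, and ran from 34185351 to 34206696, so it shared the end within 50 bp but not the start. The cause of such edges was not tested.

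Domains were then set against the RefSeq genes of the assembly MtrunA17r5.0, of which 39280 are on chromosomes 1 to 8. Of the 1054 domains, 461 (43.7%) met no annotated gene. Domains of different lists can lie at the same place, so no interval is given for this pooled share. Another 254 held at least 1 whole protein-coding gene, 32 lay inside a single protein-coding gene and 235 met protein-coding genes only in part. The remaining domains met other gene types only. The domains met 591 protein-coding genes and held 270 of these whole. No domain met an rRNA gene. A lncRNA gene was met by 49, a snoRNA gene by 53, a pseudogene by 38 and a tRNA gene by 8. The counts of this paragraph were not set beside those of other intervals of like length. No excess or lack of a gene type is therefore read from them.

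The gene content differed between the lists. In S1 at 20°C, 29.7% of the domains met no gene (24.8% to 35.0%), in S2 at 26°C 33.9% (27.9% to 40.4%) and in S1 at 26°C 40.9% (34.7% to 47.3%). In the older lists the share was 60.7% (S2 at 20°C), 67.2% (S3 at 26°C), 73.3% (S3 at 20°C), 78.6% (S4 at 20°C) and 85.0% (S4 at 26°C). The intervals cover counting within 1 list and give no test between conditions. Shorter peaks that met no gene were not counted, so this order of the lists is not read as particular to long domains. The 803 domains of the younger lists held 262 whole protein-coding genes and the 251 of the older lists 13. Counted by gene midpoints per Mb of domain, the younger lists had 64.1 protein-coding genes and the older lists 16.0. The domains of S1 at 20°C alone held 147 whole genes in 3.15 Mb, and those of S4 at 26°C held 1 in 0.622 Mb.

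By bases, genes covered 31.4%, 22.2%, 12.1% and 7.07% of the domains at 20°C in the order of the stages. At 26°C they covered 26.4%, 29.7%, 16.4% and 4.68%. The highest values are again those of the younger lists, and within each temperature the share was lowest at S4. All 8 were below the 33.3% of the chromosomes as a whole. To see whether this belongs to long domains, the shorter peaks of the same list outside persistent regions were taken as the comparison. In the order of the stages their share was 31.9%, 12.3%, 11.9% and 9.66% at 20°C. At 26°C it was 32.9%, 31.1%, 24.6% and 14.9%. It too was highest in the younger lists and lowest at S4 of each temperature, so this order is not particular to long domains. The share of the shorter peaks was higher than that of the domains in 6 of 8 lists. The mean difference, domains minus shorter peaks, was −2.41 percentage points (SD 6.25, n = 8 lists; exact two-sided sign-flip permutation test, p = 0.28; Benjamini-Hochberg adjusted over 3 tests, 0.28). It was larger without the list of S2 at 20°C, at −4.17 (p = 0.031, same exact test).

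The density of protein-coding genes in the domains went from 71.0 per Mb at S1 to 30.0, 23.4 and 14.2 per Mb at the later stages of 20°C. At 26°C it was 55.3, 63.9, 16.4 and 4.82 per Mb in the order of the stages. The chromosomes as a whole have 74.5 per Mb. The shorter peaks had 81.5, 26.7, 20.5 and 20.3 per Mb at 20°C in the order of the stages. At 26°C they had 103, 91.9, 67.7 and 36.8 per Mb. Their density too was highest in the younger lists and lowest at S4 of each temperature. It was lower in the domains than in the shorter peaks in 6 of 8 lists, including all 4 lists of 26°C. The mean difference was −21.2 genes per Mb (SD 21.7, n = 8; exact sign-flip permutation test, p = 0.039; adjusted over 3 tests, 0.094), which does not pass 0.05 after adjustment. Long and shorter peaks differed most at S3 and 26°C, by −51.3 genes per Mb. The lists are the units of this test, and several of them share places.

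**Figure D3:**
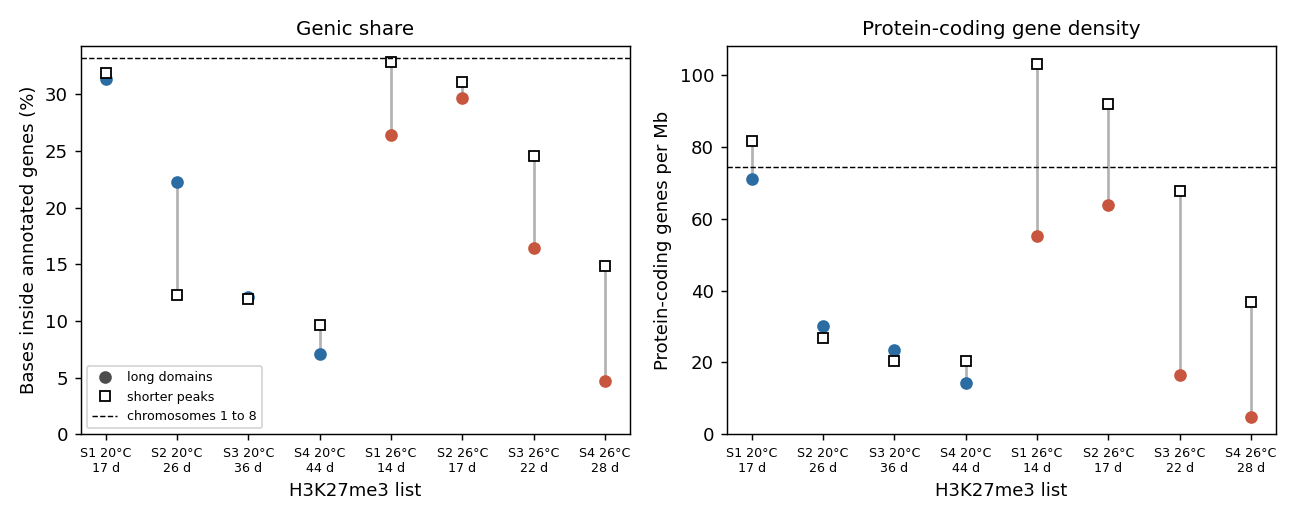
Share of bases inside annotated genes (left, %) and protein-coding genes per Mb (right) in long domains (filled circles, blue for 20°C and red for 26°C) and shorter peaks (open squares) of each list, with the value of chromosomes 1 to 8 dashed. In the lists of 26°C the domains lie below the shorter peaks in both panels.

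The domains of the older lists lay more often in gene-poor parts of the chromosomes than those of the younger lists. Of 428 bins of 1 Mb, 56 (13.1%) had under 40 protein-coding genes. They held 9.60% of the S1 domains at 20°C (exact 95% interval 6.61% to 13.3%), 17.8% at 26°C (13.3% to 23.2%) and 13.3% of the domains of S2 at 26°C (9.22% to 18.4%). In the older lists they held 34.5% (S3 at 26°C) to 71.4% (S4 at 20°C). The shorter peaks of the older lists lay in such bins in 21.3% (S3 at 26°C) to 45.4% (S4 at 20°C) of cases, and those of the younger lists in 13.4% to 15.0%. Both kinds of peaks thus had the higher shares in the older lists. Across chromosomes the domain loci ranged from 1.29 per Mb on chromosome 1 to 2.40 per Mb on chromosome 7, while the shorter peaks ranged from 55.9 to 69.8 per Mb. Loci were mostly apart from each other, with a median distance of 171 kb to the nearest other locus, and 48 of 782 had another within 10 kb.

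The H3ac share also differed between the younger and older lists. Peaks of the 4 H3ac lists together cover 1.59% of chromosomes 1 to 8. They covered 0.399%, 27.5%, 60.5% and 48.8% of the domain bases of 20°C in the order of the stages, and 1.45%, 2.75%, 16.5% and 43.2% of those of 26°C. The 3 lowest values are those of the younger lists. Among the shorter peaks the younger lists were also lowest, with 2.02% to 3.28%, and the older lists had 7.30% to 28.4%. In all 3 younger lists the share was lower in the domains than in the shorter peaks, with differences of −1.62 to −0.525 percentage points, and in all 5 older lists it was higher, by 8.92 to 40.1. Over the 8 lists the mean difference was 13.3 percentage points (SD 15.9, n = 8; exact sign-flip permutation test, p = 0.0625; adjusted over 3 tests, 0.094), which does not pass 0.05. The split by age was seen in the values and not tested.

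**Figure D4:**
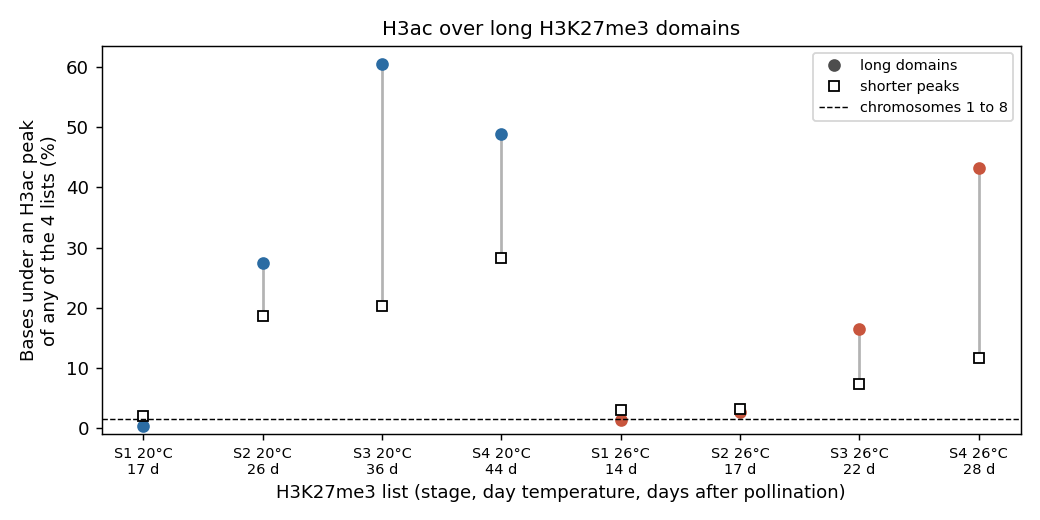
Share of bases under a peak of any of the 4 H3ac lists (%) in long H3K27me3 domains (filled circles, blue for 20°C and red for 26°C) and in shorter H3K27me3 peaks (open squares), by list, with the 1.59% of chromosomes 1 to 8 dashed. The circles lie below the squares in the lists of 14 and 17 days and above them in the other 5.

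By count of domains the older lists were also higher than the younger lists. An H3ac peak met 93 of 803 domains (11.6%) of the younger lists and 140 of 251 (55.8%) of the older lists. At least 50% of the bases were under H3ac in 10 and 92 of them. Shorter peaks were not counted in this way, and a longer peak has more room to meet an H3ac peak. These counts are therefore not read as particular to long domains. The library of the same stage and temperature can be compared in 4 cases. H3ac of S2 at 20°C covered 22.2% of the domain bases of that stage, against 9.75% of the shorter peaks and 0.736% of the chromosomes. In the younger lists the matched shares were 0.359% and 1.09% for S1 at 20°C and 26°C and 0.637% for S2 at 26°C, with 0.806%, 0.582% and 0.552% of the chromosomes. The shorter peaks of these lists had 1.34%, 0.622% and 0.602%. With the matched library alone, the domains were thus below the shorter peaks at S1 and 20°C and above them in both lists of 26°C, unlike with the 4 H3ac lists together. H3ac of S1 and S2 at 26°C covered 0% of the domain bases of S1 at 20°C. For S3 and S4 no H3ac list of the same stage was made, and the shares there compare embryos of different ages. Over all lists, H3ac peaks covered 8.45% of the domain bases, 7.74% of those of the shorter peaks and 57.6% of those of the 1161 long peaks in persistent regions. Pooled, the domains of the older lists had 35.4% and those of the younger lists 1.41%. Taken singly, the older lists ranged from 16.5% (S3 at 26°C) to 60.5% (S3 at 20°C). The highest of these was above the share of the persistent long peaks, which was pooled over all lists. The 2 marks were measured in separate libraries, so whether they lie on the same molecules was not tested.

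The longest loci were named by a rule on the length of their longest domain and the number of lists in which they were long, which gave 19 loci and 19 protein-coding genes that lie whole in them. RefSeq gives these genes only as numbered symbols. The loci are called by the rank of their longest domain. A locus joins the domains of all its lists, so a gene that it holds need not lie whole in each of these domains. Locus 1 on chromosome 3 (40151265 to 40178714) was 1 domain of 27450 bp at S1 and 20°C, with a fold enrichment of 4.40. In S2 at 26°C a domain of 5834 bp covered 21.3% of it, and the other 6 lists had no peak there. It holds 5 whole protein-coding genes, of which LOC120579424 (40154142 to 40158904), LOC112420236 (40163066 to 40165108) and LOC25489610 (40171700 to 40173902) are the longest.

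Locus 2 on chromosome 8 (20735631 to 20759687) was covered to 100% at S2 and 26°C, 92.0% at S1 and 26°C, 51.0% at S3 and 26°C, 23.3% at S1 and 20°C and 1.87% at S4 and 26°C. It was longest and most enriched in S2 at 26°C, with 24057 bp and a fold enrichment of 6.05, and no peak was listed at S2 to S4 at 20°C. It holds LOC120577489 (20749890 to 20754359), which lies whole in the domains of S1, S2 and S3 at 26°C and outside that of S1 at 20°C. Locus 3 on chromosome 6 (13081809 to 13105076) was covered whole at S1 and 20°C with an enrichment of 8.72, to 35.4% at S2 and 26°C and to 27.7% at S3 and 26°C. S1 at 26°C had no peak in it. It holds LOC112422633 (13088933 to 13091447).

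Locus 4 on chromosome 8 (41508914 to 41531799) was long at S1 at both temperatures, with 22476 bp and an enrichment of 6.97 at 26°C and 8270 bp and 3.40 at 20°C. It had no peak at any later stage. It holds LOC25501850 (41512982 to 41519015) and LOC120577696 (41524361 to 41530395), which have nearly the same length, 6034 and 6035 bp. Both lie whole in the domain of 26°C. That of 20°C ends at 41517183 and meets only a part of LOC25501850. Locus 10 on chromosome 7 (8997799 to 9018894) was also long at S1 at both temperatures, with 21082 bp at 26°C and 9110 bp at 20°C. Here the shorter domain had the higher enrichment, 9.89 against 5.01. It holds LOC11440835 (8999795 to 9010735), LOC11439796 (9003593 to 9006106), which lies within the span of the former, and LOC112416558 (9012128 to 9012610). All lie whole in the domain of 26°C, and only LOC11439796 lies whole in that of 20°C.

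Locus 6 on chromosome 1 (7497121 to 7524290) was made of 3 domains that overlap in steps, 21752 bp at S1 and 26°C, 18963 bp at S2 and 26°C and 15426 bp at S1 and 20°C. Their fold enrichments were 8.64, 7.09 and 16.2. S2 at 20°C covered 7.83% of it and S3 at 26°C 7.54%. It holds LOC11428057 (7519615 to 7521536), which lies whole only in the domain of S1 at 20°C. The domain of S1 at 26°C ends before this gene, at 7518872, and that of S2 at 26°C ends within it, at 7521297. Locus 9 on chromosome 4 (51309585 to 51330805) was covered to 100%, 96.7% and 88.1% in the younger lists (S2 and S1 at 26°C and S1 at 20°C), to 46.0% at S3 and 26°C and to 13.3% at S2 and 20°C. It holds LOC25493695 (51310925 to 51314090), which lies whole in the domains of the younger lists and outside that of S3 at 26°C. The locus with the equal edges on chromosome 2 is locus 8 (34185351 to 34206696), which was covered to at least 96.3% in S1 at 20°C and S1, S2 and S3 at 26°C and to 4.29% at S4 and 26°C. It holds LOC25486972 (34190663 to 34194694) and LOC25486973 (34200619 to 34203065).

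Locus 5 on chromosome 5 (20615707 to 20637749) and locus 7 on chromosome 2 (37546164 to 37567583) were long in 1 list each. Locus 5 had 22043 bp and an enrichment of 3.93 at S1 and 26°C, with 1.62% covered at S2 and 26°C, and holds LOC11436426 (20626740 to 20630433). Locus 7 had 21420 bp and an enrichment of 3.52 at S2 and 26°C, with 2.43% covered at S1 and 20°C, and holds LOC11410403 (37546904 to 37550214) and LOC11415407 (37553672 to 37557931). H3ac peaks covered 0% of 8 of the 10 longest loci and 1.77% and 1.61% of loci 9 and 10. The longest domain of each of these loci is of a younger list. In those lists an H3ac peak met only 93 of 803 domains (11.6%), so nothing particular to the longest loci is read from this.

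**Figure D5:**
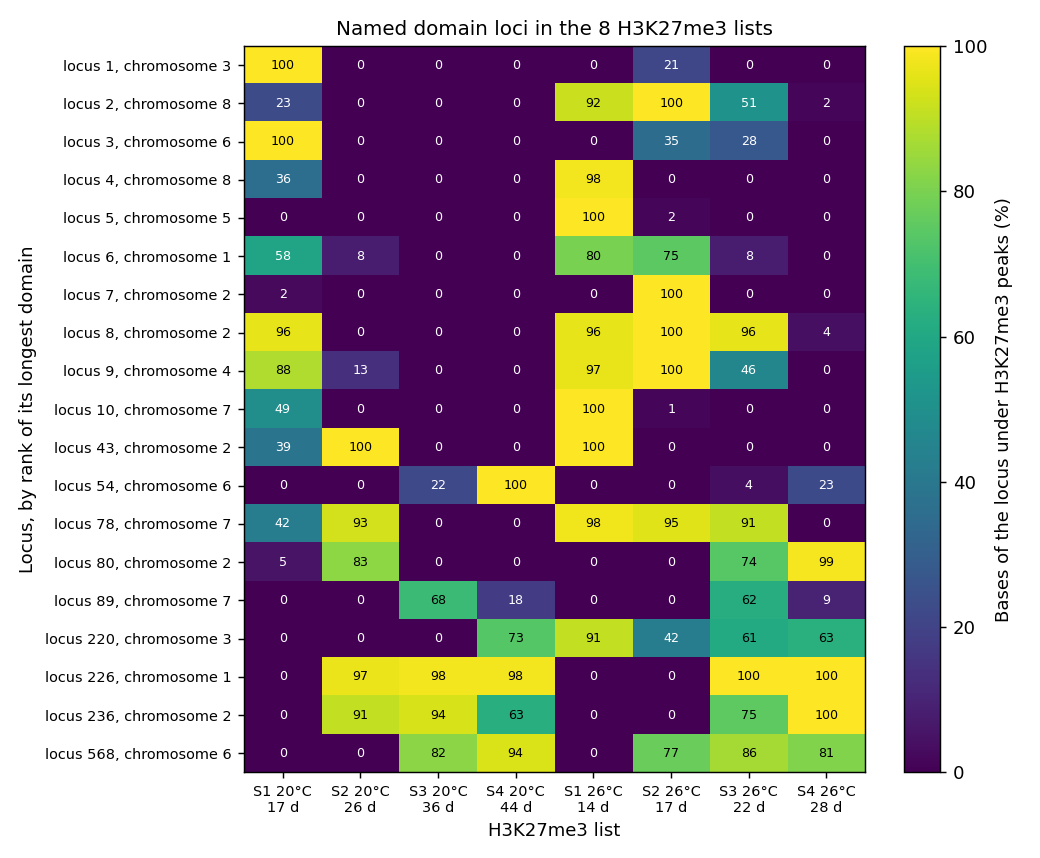
Share of the bases of each named locus (rows, by rank of its longest domain) under H3K27me3 peaks of each list (columns), in %. Loci 1 to 10 are covered mainly in the lists of 14 and 17 days, and loci 226 and 236 only in lists of 22 days or more.

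The 5 loci that were long in 5 lists were named for that number and not for their length. None reached 15 kb, and 4 of them met no annotated gene. Among all 1054 domains, 461 (43.7%) met none. The naming rule set the difference in length from the longest loci, and a shorter locus has less room for genes. No contrast between these sets of loci is therefore read from this. Locus 78 on chromosome 7 (47767710 to 47782640) had the strongest domains, with a fold enrichment of 26.1 at S1 and 23.8 at S2 at 26°C, 7.30 at S3 and 26°C, 5.70 at S2 and 20°C and 3.91 at S1 and 20°C. No peak was listed at S4 at either temperature or at S3 and 20°C, and H3ac covered 0% of it. Locus 226 on chromosome 1 (22750101 to 22761349) was covered to between 97.2% and 100% in S2, S3 and S4 at 20°C and S3 and S4 at 26°C, and had no peak in the 3 younger lists. Its fold enrichments were 2.70 to 4.50. H3ac peaks covered 100% of it in the list of S2 at 20°C and 0% in each other H3ac list. Locus 236 on chromosome 2 (24401293 to 24412329) was long in the same 5 lists, with 62.9% to 99.9% covered. The H3ac lists together covered 96.2% of it. By list this was 90.5% (S2 at 20°C), 63.8% (S2 at 26°C), 43.0% (S1 at 26°C) and 0% (S1 at 20°C).

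Locus 220 on chromosome 3 (6677471 to 6689940) was long in S4 at 20°C and all 4 stages of 26°C, with 42.4% to 90.8% covered. H3ac covered 45.5% of it, from the lists of S1 at 26°C (40.4%) and S2 at 20°C (37.1%). Locus 568 on chromosome 6 (7081902 to 7089141) was long in S3 and S4 at 20°C and S2, S3 and S4 at 26°C, with 77.3% to 94.4% covered and enrichments of 3.31 to 5.57. It holds LOC120575874 (7082794 to 7085343), which lies whole only in the domain of S4 at 20°C. H3ac covered 32.6% of the locus, from the lists of S1 (24.4%) and S2 (12.6%) at 20°C. Locus 568 is thus the locus long in 5 lists that holds a gene.

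The remaining named loci carry the longest domain of an older list. Locus 43 on chromosome 2 (19147885 to 19164335) was covered to 100% at S2 and 20°C and at S1 and 26°C, with enrichments of 3.24 and 3.19, from 19147889 to 19164335 and from 19147885 to 19164333, and to 38.6% at S1 and 20°C. Locus 54 on chromosome 6 (24953298 to 24968704) was 1 domain of 15407 bp at S4 and 20°C, with 22.1% covered at S3 and 20°C, 22.5% at S4 and 26°C and 3.63% at S3 and 26°C. Locus 80 on chromosome 2 (8651207 to 8666006) was covered to 98.6% at S4 and 26°C, 83.0% at S2 and 20°C and 74.2% at S3 and 26°C. H3ac covered 61.7% of it, only in the list of S2 at 20°C. None of these 3 loci meets a gene. Locus 89 near the start of chromosome 7 (49447 to 72321) was long at S3 at both temperatures, with 68.1% covered at 20°C and 62.1% at 26°C, and to 17.9% (20°C) and 9.50% (26°C) at S4, and had no peak at S1 or S2. It holds LOC120576902 (64830 to 66404), which lies whole in the domain of S3 at 20°C. The domain of S3 at 26°C ends before this gene, at 63655.

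A total of 9 tRNA genes lie whole in domain loci. The 5 in the longest loci are TRNAP-AGG on chromosome 3 (56527510 to 56527581), in a locus long at S1 and S2 at 26°C, TRNAQ-UUG on chromosome 3 (42223323 to 42223394), long at S1 and 20°C, TRNAL-UAA on chromosome 6 (29505393 to 29505475), long at S1 and 26°C, TRNAI-UAU on chromosome 4 (6386046 to 6386119), long at S1 and 20°C, and TRNAN-GUU on chromosome 1 (52604111 to 52604182), long at S1 and 20°C and S2 and 26°C. Of the 9, TRNAD-GUC on chromosome 2 (26634475 to 26634546) is the one in a locus long in an older list, S4 at 26°C. Over all loci, 208 of 782 (26.6%) hold at least 1 whole protein-coding gene, 271 genes in all and at most 5 in a locus.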

How the data were processed

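Chromatin of pooled embryos was immunoprecipitated with an antibody against H3K27me3 or H3ac, 24 libraries in all (12 IP, 12 INPUT). Reads were trimmed by the authors (Trim Galore) and mapped to MtrunA17r5.0 (STAR, uniquely mapped reads). After duplicate removal (Picard), MACS2 compared each IP with its INPUT, and no libraries were pooled. Tool versions are not given in the sources used here. The deposited lists give, for each peak, its position, a ratio of IP over INPUT called fold enrichment, and p-value and q-value as −log10. They hold no read counts, so the depth behind a peak is unknown here. The study states the reads of each library, which were not used here. A shallower library or a stricter threshold can shorten or break a domain.

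Starts were written 1-based. In Python 3.11.15 (pandas 2.3.3, NumPy 2.4.6, SciPy 1.17.1), peaks on chromosomes 1 to 8 were merged, domains selected, and their bases set against the gene spans of the RefSeq table (without strand) and the union of the 4 H3ac lists. Domains and shorter peaks were compared per list and tested over 8 lists by exact sign flips. The interval code was tested on simulated data, and 3 of 3 quantities were equal in bedtools. Members, lists and alternatives were chosen with earlier results of these data known. Loci named were the 10 longest, the 5 long in the most lists and the longest of each list, with up to 3 whole protein-coding genes each, and up to 5 tRNA genes. The alternatives were other minimum lengths and persistence limits, filters on q-value and fold enrichment, peaks within 1 kb joined, protein-coding genes only, whole chromosomes as the comparison, and each list left out. The age split was chosen after seeing the values. GC content, promoter motifs and gene lists by function had been planned and were not analysed here, as no genome sequence or gene descriptions were used.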

Additional observations from a re-analysis of the deposited data

Results flagged for a closer look

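Among the 4 lists of 20°C, that of S1 stood far from the other 3 in the number of long domains (323 against 15 to 56), in their covered length (3.15 Mb against 0.128 to 0.466 Mb) and in their median fold enrichment (4.48 against 2.56 to 2.78). Each of 9 measures was examined among the 4 lists of each temperature, 18 groups in all, and 3 gave a value this far from the others. Among groups of like samples, chance would single out about 1 in 20. Here the 4 lists of a group are 4 different stages, and the rule that chose the domains used their length. That rate can therefore not be applied, and the values are only described. These measures are also related, since they come from the same peaks. No list of 26°C stood apart in this way.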

How the results depend on the processing

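No paired analysis was possible because each library has the replicate number 1, so groups share fewer than 2 numbers. The 4 stages link the temperatures, and their ratios are given without a test, as the rule used these lists. The number of domains was 837 to 1315 under 8 of the 9 other settings and 384 with a minimum length of 10 kb. With 1 list left out, an alternative chosen after seeing the data, it was 731 to 1039. For S4 against S1 the log2 ratio at 20°C (−2.94) was −3.70 with persistence at 5 lists, −2.32 at 7 lists and −3.91 with a fold enrichment of at least 3. At 26°C (−1.63) it was −2.47 for 10 kb. The ratio of 26°C to 20°C at S4 (0.93) was 1.75 with that fold enrichment, and at S1 it stayed negative under all 9 settings. The genic difference (−2.41 percentage points, p = 0.28) was −4.52 with persistence at 7 lists (p = 0.023), −8.72 with a fold enrichment of at least 3 (p = 0.0078, the smallest that 8 lists allow) and −14.5 against whole chromosomes (p = 0.0078), and −4.17 to −1.29 with 1 list left out (p = 0.031 to 0.56; all exact sign-flip permutation tests, unadjusted). The difference in gene density (−21.2, p = 0.039) was −43.8 with a fold enrichment of at least 3 (p = 0.016), −39.6 against whole chromosomes (p = 0.0078) and −24.7 to −16.9 per Mb with 1 list left out (p = 0.031 to 0.078, exact test) and of these passed unadjusted 0.05 only without S2 or S3 of 20°C. The H3ac difference (13.3, p = 0.0625) was 23.4 with a fold enrichment of at least 3 (p = 0.016), 23.6 against whole chromosomes (p = 0.047), 5.99 with persistence at 5 lists (p = 0.16) and 9.49 to 15.5 with 1 list left out (p = 0.0625 to 0.125, exact test). No sign of these 3 differences changed. The alternatives on GC content were not run, as no genome sequence was used. The causes of these shifts were not tested. The longest domain of all 19 named loci kept its length with the q-value and fold enrichment filters and with joined peaks, and with persistence at 5 lists 10 of the 19 loci were left.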
